A study of Rattus norvegicus with 49 samples.

Results

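The genes described here sense foreign chemicals in liver or are switched on by those sensors: the receptors Ahr, Nr1i2 and Nr1i3, the cytochromes P450 Cyp1a1, Cyp2b1, Cyp2b2, Cyp3a9, Cyp3a18 and Cyp3a62, and Por, the reductase that passes electrons to P450 enzymes. The 10 genes were chosen by name, with earlier results of these data known. Each was measured by every probe whose RefSeq transcript belongs to it. Of the 10, 9 had such a probe, which gave 11 of the 30367 probes on the array. No probe carried a transcript of Cyp2b1, which is not analysed here. The 1 probe for Cyp1a1 was above background in the liver channel on 0 of 48 arrays and was not tested. This left 10 probes of 8 genes among 17661 tested probes.

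F344 rats of both sexes, which are inbred, were 7 to 8 weeks old at the start. By gavage they were given furan in corn oil on 5 days a week for 90 days, with 0.03 mg/kg/day as the lowest dose, then 0.12 and 0.5, and 2 mg/kg/day as the highest. Controls were given corn oil alone (0 mg/kg). Each group of 1 sex and 1 dose held 5 rats, except for the males at 0.03 mg/kg, where 3 of 4 arrays were used. Each array measured the liver RNA of 1 rat (Cy5) against a reference RNA pooled from mixed rat tissues (Cy3), so every level given here is a log2 ratio of liver over reference, with no dye swap. RNA came from whole frozen liver taken 24 h after the last dose.

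AHR, the product of Ahr, binds planar aromatic compounds and is known for switching on Cyp1a1 and Cyp1a2. CAR, encoded by Nr1i3, and PXR, encoded by Nr1i2, are nuclear receptors that pair with RXR and are known for inducing genes of the CYP2B and CYP3A subfamilies in hepatocytes. CYP3A enzymes oxidise a wide range of drugs and steroids, and in rats several of them differ between the sexes.

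The 48 arrays lay on 8 slides and had between 37.9% and 71.2% of their liver spots above background. One further array, of male 26 at 0.03 mg/kg, had 5.06% and was left out. Slides 5 and 6 held 10 treated and 0 control arrays, with liver shares of 37.9% to 46.0%. Slide moved several of these genes more than it moved the median probe. The fitted difference between the highest and the lowest slide was 2.01 on the log2 scale for Cyp3a62, 2.44 and 2.32 for the 2 probes of Nr1i3, 1.57 and 1.90 for those of Cyp2b2, 1.23 for Cyp3a18 and 1.13 for Por. The median over all tested probes was 0.63. The comparisons therefore kept slide as a block. A call needed an adjusted p of 0.05 or lower together with a fold change (FC) of 1.5 or more. The hepatocyte markers Alb and Ttr were above background on all 48 arrays, with medians of 8.27 and 8.25.

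At 2 mg/kg, transcripts of Cyp3a62 rose in both sexes and those of Por rose in males. The 3 receptors and Cyp2b2 were not called in the main fit at any dose in either sex. In males 2 of the 10 tested probes were called at 2 mg/kg, where 5.07% of all 17661 probes were called. In females 1 of 10 was called, against 1.4% of all probes. Since the genes were chosen with earlier results of these data known, these shares describe the group and do not test it. The median change over the 10 probes was -0.003 in males and 0.09 in females, and that over all probes was -0.02 and 0.01. Since each of these samples is whole liver, fewer cells of a type and less RNA per cell cannot be told apart. The changes at 2 mg/kg are drawn side by side for each probe.

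**Figure D1:**
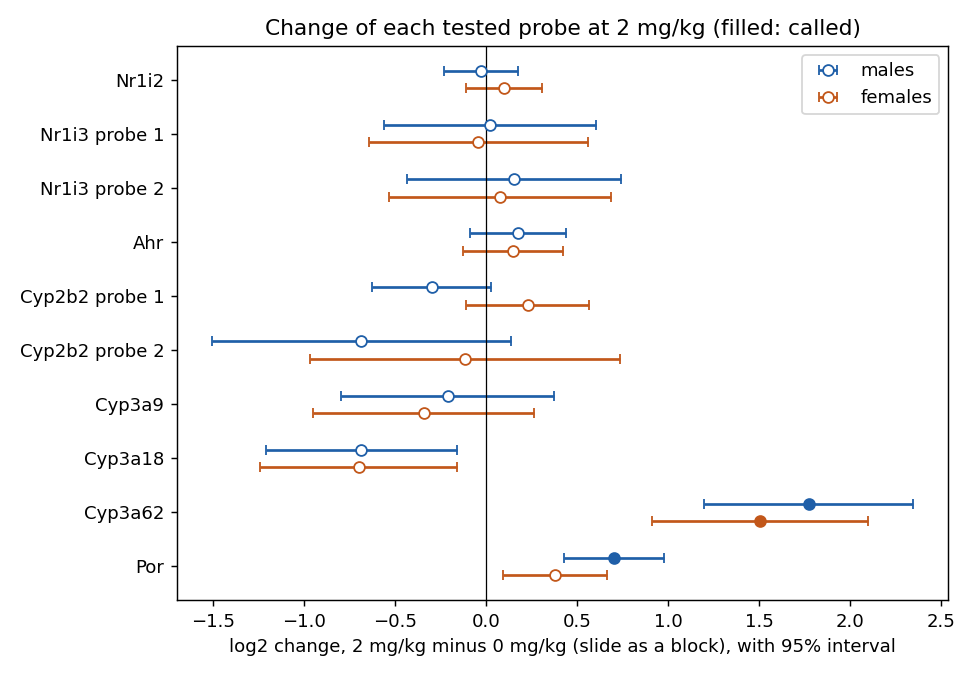
Log2 change at 2 mg/kg against 0 mg/kg (x axis) for the 10 tested probes (y axis), in males (blue) and females (orange), with 95% intervals from the fit with slide as a block. Filled points were called. Cyp3a62 lies at 1.77 in males and 1.51 in females, Por at 0.70 in males, and no other point was called.

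Cyp3a62 encodes a member of the CYP3A subfamily, and its start region is shown with those of Cyp3a9 and Cyp3a18, which belong to the same subfamily and were not called. The sequences are those of RefSeq on GRCr8 from 250 bases before to 50 bases after the start of the gene, in the direction of transcription. Capitals mark AGTTCA or its reverse complement TGAACT, a hexamer of the kind that nuclear receptors such as PXR and CAR bind. The hexamer AGGTCA and the AHR core GCGTG were searched as well, on both strands, and are absent from these 3 windows.
Cyp3a62, chr12:21511513-21511812, + strand: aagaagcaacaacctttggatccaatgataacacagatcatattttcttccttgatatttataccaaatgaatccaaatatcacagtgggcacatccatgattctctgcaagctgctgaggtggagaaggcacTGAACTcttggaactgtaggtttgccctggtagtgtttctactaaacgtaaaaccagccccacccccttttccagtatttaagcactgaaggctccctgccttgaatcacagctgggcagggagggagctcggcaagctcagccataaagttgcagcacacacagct
Cyp3a9, chr12:21960111-21960410, - strand: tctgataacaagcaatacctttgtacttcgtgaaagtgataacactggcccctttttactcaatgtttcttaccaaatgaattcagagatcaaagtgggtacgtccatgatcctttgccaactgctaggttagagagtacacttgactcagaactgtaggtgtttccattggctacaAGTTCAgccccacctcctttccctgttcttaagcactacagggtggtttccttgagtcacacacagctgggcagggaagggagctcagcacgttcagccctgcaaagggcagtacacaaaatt
Cyp3a18, chr12:13994062-13994361, + strand: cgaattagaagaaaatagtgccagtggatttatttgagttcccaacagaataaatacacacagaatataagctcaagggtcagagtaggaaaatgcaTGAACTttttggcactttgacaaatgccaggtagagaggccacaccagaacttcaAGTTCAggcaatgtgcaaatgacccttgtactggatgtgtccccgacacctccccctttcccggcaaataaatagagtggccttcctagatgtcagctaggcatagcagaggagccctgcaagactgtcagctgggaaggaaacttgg

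All 3 windows held AGTTCA: Cyp3a62 once, Cyp3a9 once and Cyp3a18 2 times. AGTTCA was present in 14.5% of all 33469 start regions of 300 bases, AGGTCA in 16.2% and GCGTG in 29.7%. Among the other members with a start region in the table, Nr1i2 held AGTTCA once, Cyp2b1 and Cyp2b2 held GCGTG once each, Por held GCGTG 3 times and AGGTCA once, and Nr1i3 and Ahr held none of them. The AGGTCA of Por shares bases with one of its GCGTG matches. A match describes the letters only. The start regions of 9 of the 10 members were in the table. The starts used for Por, Nr1i3 and Cyp2b2 lay inside the listed span of the gene and not at its edge. The window of Por was chr12:26635760-26636059, within a span of 26587674-26655612, so the outer start of Por was not searched.

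Transcript levels of Cyp3a62 in control males were 1.75, 2.97, 3.13, 3.51 and 3.76, and in males at 2 mg/kg they were 3.18, 3.42, 4.14, 5.06 and 5.34. The groups overlapped: 3 of 5 treated males lay above every control. The lowest value of each group came from slide 8. On the 3 slides that held a control and a 2 mg/kg male, the treated rat was higher by 1.58, 1.55 and 1.43. With slide as a block the change was 1.77 ± 0.28 (SE, limma; 95% interval 1.20 to 2.35), a 3.42-fold rise with an adjusted p of 2.74e-05. Without slide in the model it was 1.20 with an adjusted p of 0.165, and the call was lost.

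In females, control levels of Cyp3a62 were 0.93, 1.35, 1.48, 1.56 and 2.14, and those at 2 mg/kg were 1.02, 1.69, 1.85, 2.18 and 3.21. Here 2 of 5 treated rats lay above every control. On the 2 slides that held both, the treated female was higher by 1.86 and 1.25. The change with slide as a block was 1.51 ± 0.29 (SE, limma; 95% interval 0.91 to 2.10), which is 2.84-fold, with an adjusted p of 0.00271. Without slide in the model it was 0.50, with an adjusted p of 0.538. The effect at 2 mg/kg differed between the sexes by 0.27 (95% interval -0.53 to 1.06, adjusted p = 0.746 in limma).

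**Figure D2:**
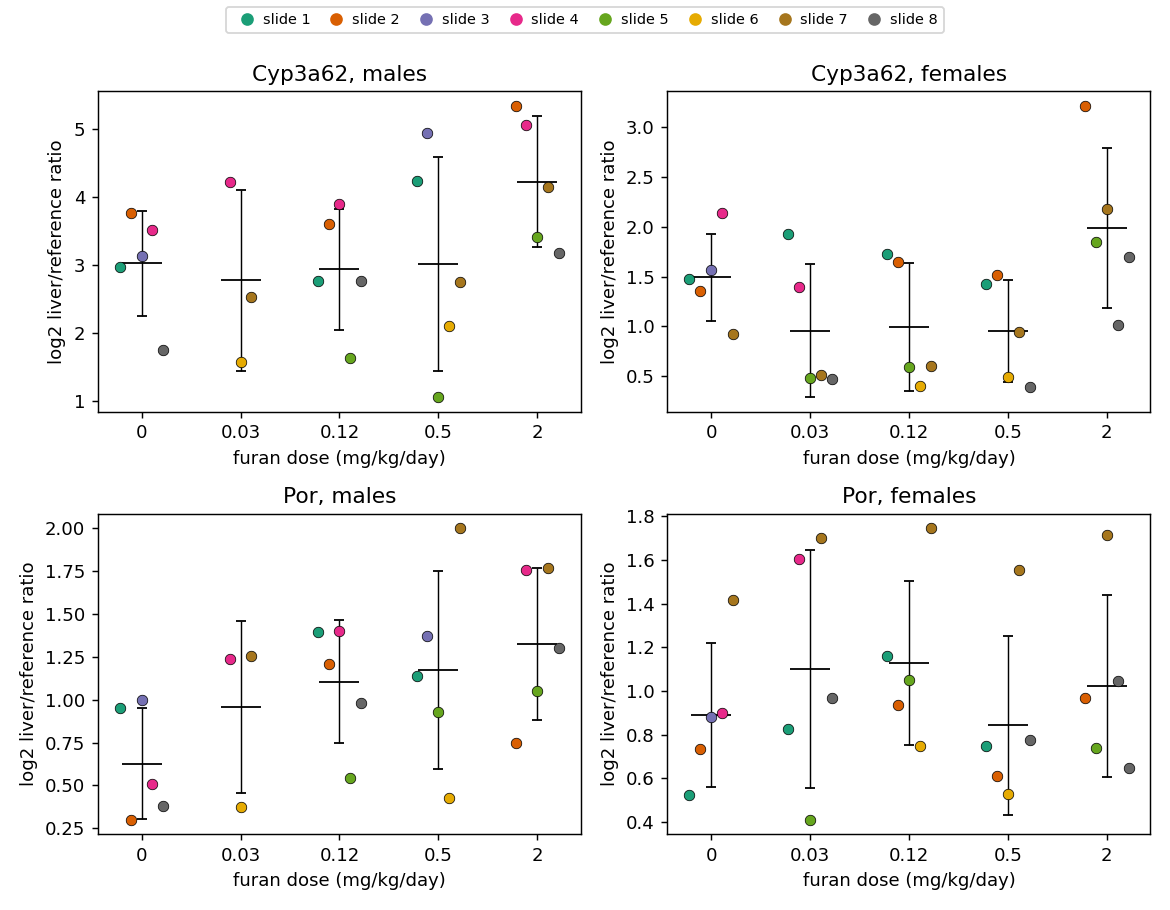
Log2 liver/reference ratio (y axis) of each array by furan dose in mg/kg/day (x axis) for Cyp3a62 (top) and Por (bottom) in males (left) and females (right), coloured by slide, with group means and SDs. For Cyp3a62 the 2 mg/kg arrays of slides 2, 4, 7 and 8 lie above the control of the same sex and slide wherever there is one, while slides 5 and 6 are low at the lower doses and hold no control.

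At the lower doses Cyp3a62 was not called. In males the change was 0.34 ± 0.34 at 0.03 mg/kg, 0.31 ± 0.28 at 0.12 mg/kg and 0.62 ± 0.29 at 0.5 mg/kg (SE). In females it was 0.17 ± 0.28, 0.28 ± 0.29 and 0.20 ± 0.28 at the same doses. The probe was above background on 42 of 48 arrays, and the 6 others were females at 0.03, 0.12 and 0.5 mg/kg, 2 of 5 in each group. All doses of a sex were compared with the same controls. The moderated F test over the 4 doses, read by its adjusted p alone, called Cyp3a62 in males (adjusted p = 0.000147) and in females (adjusted p = 0.00885).

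Por encodes NADPH-cytochrome P450 reductase, which all microsomal P450 enzymes use. Control males had levels of 0.30, 0.38, 0.51, 0.95 and 0.999, and males at 2 mg/kg had 0.75, 1.05, 1.30, 1.76 and 1.77. Of the 5 treated males, 4 lay above every control. The treated rat was higher by 0.45, 1.25 and 0.92 on the 3 slides that held both. The change was 0.70 ± 0.14 (SE, limma; 95% interval 0.43 to 0.98, FC 1.63), with an adjusted p of 0.000245. It was 0.70 with an adjusted p of 0.0951 without slide in the model. Without control male 5 the change was 0.57 (adjusted p = 0.00307), under the fold limit.

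Por was also called in males at 0.12 mg/kg (0.61 ± 0.13, adjusted p = 0.0248) and at 0.5 mg/kg (0.59 ± 0.14, adjusted p = 0.0375) by limma. Its level at 0.12 mg/kg was 0.54, 0.98, 1.21, 1.39 and 1.40, and at 0.5 mg/kg 0.43, 0.93, 1.14, 1.37 and 2.00. In each group 3 rats lay above every control. Both FCs, 1.52 and 1.5, sat at the fold limit. The treated male was higher on 4 of 4 slides at 0.12 mg/kg, by 0.44 to 0.91, and on 2 of 2 at 0.5 mg/kg, by 0.19 and 0.37. These were the only members called at those doses, 1 of 10 in each, where 0.3% and 0.362% of all probes were called. The call at 0.12 mg/kg was lost without control male 2 (0.58), 5 (0.48) or 6 (0.59) or treated male 42 (0.54) or 44 (0.54). The call at 0.5 mg/kg was kept in 2 of 10 fits that each left out 1 array, namely those without control male 4 or treated male 62, and its change in the 10 fits was 0.48 to 0.71. Slides 5 and 6 held 1 of the 5 males at 0.12 mg/kg and 2 of the 5 at 0.5 mg/kg, and without them the changes were 0.67 (adjusted p = 0.0149) and 0.62 (adjusted p = 0.101).

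Females showed no called change in Por. Control levels were 0.52, 0.73, 0.88, 0.90 and 1.42, and those at 2 mg/kg were 0.65, 0.74, 0.97, 1.05 and 1.71. The highest female of both groups was on slide 7. The change at 2 mg/kg was 0.38 ± 0.14 (95% interval 0.09 to 0.66, adjusted p = 0.0938 in limma), and 2 of 2 slides gave a higher treated rat, by 0.23 and 0.29. It was 0.53 ± 0.14 at 0.12 mg/kg with an adjusted p of 0.202. The sexes differed in the 2 mg/kg change by 0.32 (95% interval -0.06 to 0.70), which passed no threshold (adjusted p = 0.351 in limma). The F test over the 4 doses called Por in males (adjusted p = 0.000695) and not in females (adjusted p = 0.0925). By that test 2 of 10 members were called in males and 1 of 10 in females, against 18.2% and 2.99% of all probes.

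**Figure D3:**
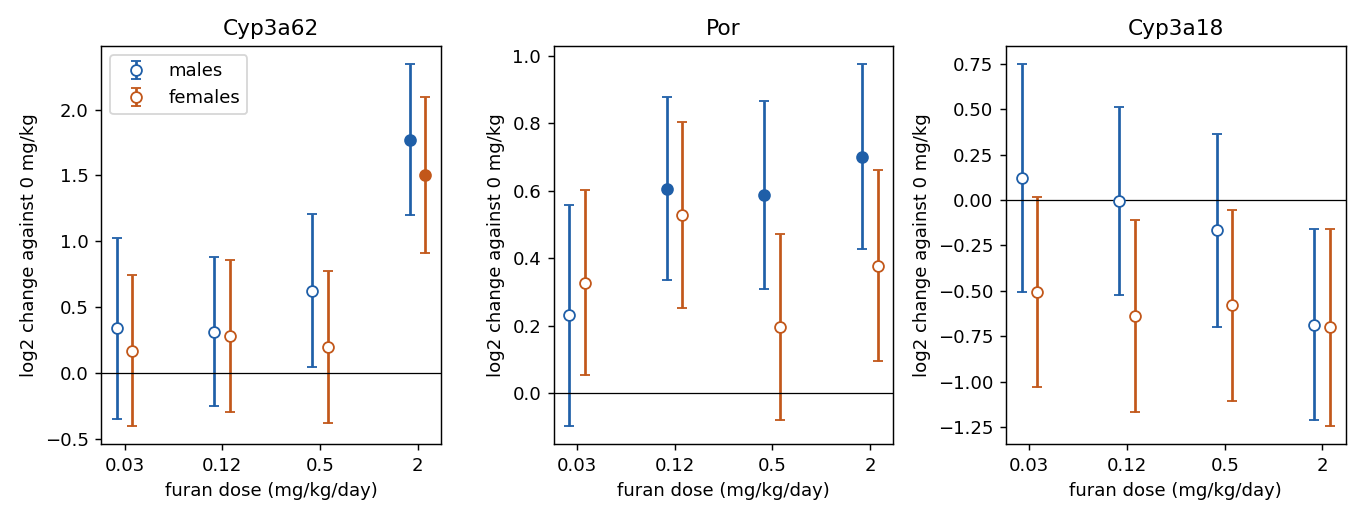
Log2 change against 0 mg/kg (y axis) by furan dose in mg/kg/day (x axis) for Cyp3a62, Por and Cyp3a18 in males (blue) and females (orange), with 95% intervals from the fit with slide as a block. Filled points were called: Cyp3a62 at 2 mg/kg in both sexes, and Por in males at 0.12, 0.5 and 2 mg/kg. Cyp3a18 lies at -0.69 and -0.70 at 2 mg/kg and was not called.

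Cyp3a18 encodes a CYP3A enzyme of male rat liver. Its level was 6.29, 7.07, 7.53, 7.81 and 7.93 in control males and 5.21, 6.02, 6.22, 6.68 and 7.26 at 2 mg/kg, so that 3 of 5 treated males lay below every control. In females the controls were 4.75, 4.97, 5.27, 5.31 and 5.34, and all 5 rats at 2 mg/kg lay below them, at 2.92, 3.54, 4.08, 4.13 and 4.36. There were 5 pairs of a control and a 2 mg/kg rat of 1 sex on 1 slide, and slide 2 held a pair of each sex. The treated rat was lower in each pair, by -0.55 to -1.25 in males and by -1.20 and -1.23 in females. With slide as a block the changes were -0.69 ± 0.26 in males (adjusted p = 0.0503) and -0.70 ± 0.27 in females (adjusted p = 0.103 in limma), and neither was called. Without slide in the model the changes were larger, at -1.05 in males (adjusted p = 0.0823) and -1.32 in females (adjusted p = 0.0522), and were not called. The authors' normalised values were also fitted without slide, and with male 26 at 0.03 mg/kg included. They gave -0.64 in males (adjusted p = 0.473 in limma) and -1.65 in females (adjusted p = 0.0427), a call in females. Males were called with slide as a random block (adjusted p = 0.0327), without slides 5 and 6 (0.0461), under a filter on every array of a group (0.0466) and in the liver channel alone (-1.02, adjusted p = 0.00388), and females with array weights (-0.74, adjusted p = 0.0378). In the females the 5 rats at 0.12 mg/kg also lay below every control, with a change of -0.64 ± 0.26 (adjusted p = 0.526).

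The call on Cyp3a18 changed with single rats. It was called in males without control male 4 (-0.77), treated male 86 (-0.81) or treated male 81 (-0.76), and in females without treated female 82 (-0.89). The 2 mg/kg change differed between the sexes by 0.02 (95% interval -0.71 to 0.74, adjusted p = 0.986).

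Cyp3a9 encodes a CYP3A enzyme that female rat liver makes in larger amount. It was not called at any dose. At 2 mg/kg its change was -0.21 ± 0.29 in males (95% interval -0.80 to 0.38) and -0.34 ± 0.30 in females (95% interval -0.95 to 0.26). Males at 2 mg/kg spread widely, at 0.15, 0.45, 1.27, 1.30 and 2.47, against 1.07, 1.41, 1.42, 1.49 and 1.65 in controls. The intervals leave room for a 1.5-fold fall in both sexes.

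Cyp2b2, a phenobarbital-inducible P450 known as a target of CAR, was measured by 2 probes above background on 48 of 48 arrays. At 2 mg/kg the difference from controls at the brighter probe was -0.30 ± 0.16 for males and 0.23 ± 0.17 for females (adjusted p = 0.181 and 0.42 in limma). At the second probe it was -0.69 ± 0.40 and -0.12 ± 0.42, with intervals of -1.51 to 0.13 and -0.97 to 0.73. The 2 probes differed in sign in females and neither was called. The sexes differed by -0.53 at the brighter probe (95% interval -0.98 to -0.07), with an adjusted p of 0.189. Cyp2b2 and Cyp2b1 are close relatives, as are the CYP3A genes, each of which was measured by 1 probe. Whether any of these probes also binds transcripts of a relative was not tested, since probe sequences were not used here, and this holds for the dose and sex differences of Cyp3a62, Cyp3a18 and Cyp3a9.

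Of the receptors, Nr1i2 had the narrowest spread. Its level ran from 4.18 to 5.32 over the 48 arrays, and its change at 2 mg/kg was -0.03 ± 0.10 in males (95% interval -0.23 to 0.17) and 0.10 ± 0.10 in females (-0.11 to 0.31). These intervals hold no 1.5-fold change in either direction. Its largest changes were 0.20 in males and 0.22 in females, both at 0.12 mg/kg, with adjusted p values of 0.757 and 0.553 in limma.

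Nr1i3 was measured by 2 probes that ran from 1.35 to 5.56 and from 0.77 to 4.77, and slide 5 was the lowest for both. At 2 mg/kg the difference from controls at the brighter probe was 0.02 ± 0.29 for males and -0.04 ± 0.30 for females. At the second probe it was 0.15 ± 0.29 and 0.07 ± 0.30. Their intervals reached from -0.56 to 0.74 in males and from -0.65 to 0.68 in females, so that a 1.5-fold rise lies within both and a 1.5-fold fall within that of females.

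Ahr had log2 ratios from -0.26 to 1.43, and was above background on 34 of 48 arrays. Its change at 2 mg/kg was 0.17 ± 0.13 in males (95% interval -0.09 to 0.44) and 0.15 ± 0.14 in females (-0.13 to 0.42). Cyp1a1, its best known target, was not well above background on any array in any group, with group means of -0.29 to -0.10. No fold change is given for it.

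At the lower doses limma called none of the 10 probes in males at 0.03 mg/kg (0% of all probes) and none in females at 0.03, 0.12 or 0.5 mg/kg, where 0.017%, 0.0113% and 0.0283% of all probes were called. At an unadjusted p under 0.05 these comparisons had 0, 1, 3 and 1 of the 10. Of all 17661 probes, 728, 1144, 1489 and 2683 passed it, in the same order. For the difference between the sexes at 2 mg/kg 0 of 10 were called, against 1.08% of all probes. At an unadjusted p under 0.05 it was 1 of 10, against 3331 of all 17661 probes.

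The controls differed between the sexes at 3 of the 10 probes, all of CYP3A genes, where 6.42% of all probes were called. Cyp3a9 was lower in males by -3.30 ± 0.28 (9.84-fold, adjusted p = 1.84e-11 in limma), with males at 1.07 to 1.65 and females at 4.37 to 5.22. Cyp3a18 was higher in males by 2.23 ± 0.25 (4.69-fold, adjusted p = 1.49e-08), with males at 6.29 to 7.93 and females at 4.75 to 5.34. Neither pair of groups overlapped. Cyp3a62 was higher in males by 1.63 ± 0.27 (3.09-fold, adjusted p = 3.15e-05), with overlapping groups at 1.75 to 3.76 and 0.93 to 2.14. Without slide in the model the Cyp3a62 difference was 1.53 with an adjusted p of 0.101. The size for Cyp3a18 depended on the processing: it was 0.55 in the ratio of the scanner software, under the fold limit, and 3.86 in the liver channel alone.

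Ahr was lower in control males by -0.36 ± 0.13 (adjusted p = 0.038), less than 1.5-fold. The 2 probes of Nr1i3 were higher in control males by 0.74 ± 0.28 and 0.64 ± 0.28, with adjusted p values of 0.0546 and 0.0993. Without control male 6 both were called, at 0.93 and 0.87, and without control female 4 the brighter one was called, at 0.84. Nr1i2, Por and both probes of Cyp2b2 were not called between the sexes.

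**Figure D4:**
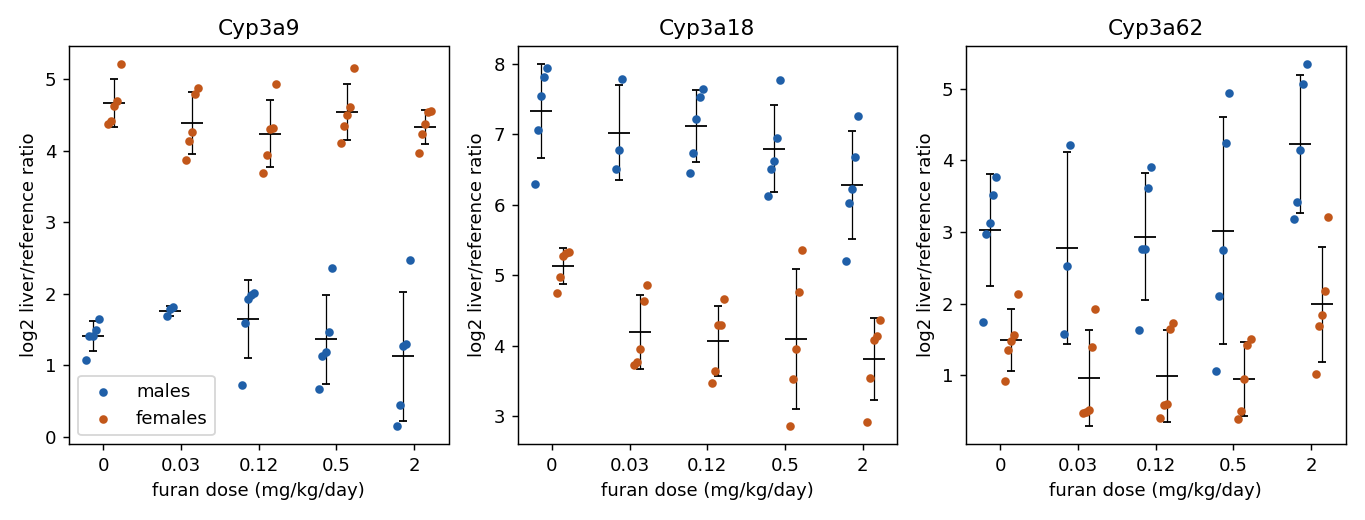
Log2 liver/reference ratio (y axis) of each array by furan dose in mg/kg/day (x axis) for Cyp3a9, Cyp3a18 and Cyp3a62 in males (blue) and females (orange), with group means and SDs. Within each dose group Cyp3a9 is higher in females and Cyp3a18 in males, without overlap, and Cyp3a62 is higher in males in the group means.

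Over all doses the male and female ranges stayed apart for Cyp3a9, at 0.15 to 2.47 in males and 3.69 to 5.22 in females. For Cyp3a18 they were 5.21 to 7.93 and 2.86 to 5.36, which overlap: the lowest male, at 2 mg/kg, lay below 3 control females (5.27, 5.31 and 5.34) and 1 female at 0.5 mg/kg (5.36). The group means of Cyp3a18 at 2 mg/kg were 6.28 ± 0.76 in males and 3.81 ± 0.58 in females (SD, n = 5 each).

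The wider pathways were followed through lists of other genes, by the brightest probe of each. Of 9 tested genes of the AHR pathway, 1 rose in males at 2 mg/kg: Nqo1, a quinone reductase that NRF2 also controls, by 0.73 ± 0.15 (adjusted p = 0.000589 in limma). In females 0 were called. Over all probes, 5.07% were called in males and 1.4% in females. At an unadjusted p under 0.05, 4 of the 9 passed in males and 1 in females. Of all 17661 probes, 6198 passed it in males and 4235 in females. Cyp1a2, a liver P450 that AHR induces, differed from controls by -0.37 ± 0.11 in males (adjusted p = 0.0159), under the fold limit, and by -0.19 ± 0.12 in females. The median change of the 9 was 0.20 in males and 0.01 in females.

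Of 16 tested targets of CAR and PXR, 1 rose and 3 fell in males at 2 mg/kg, and 12 were not called. Over all probes, 5.07% were called in males and 1.4% in females. At an unadjusted p under 0.05, 12 of the 16 passed in males and 9 in females. Of all 17661 probes, 6198 passed it in males and 4235 in females. Ces2c, a carboxylesterase, rose by 0.84 ± 0.22 in males (adjusted p = 0.00426) and by 0.83 ± 0.23 in females (adjusted p = 0.0258). Both further CYP3A genes of the list fell in males: Cyp3a2, a male-specific enzyme, by -1.28 ± 0.32 (adjusted p = 0.00359), and Cyp3a23-3a1 by -0.88 ± 0.19 (adjusted p = 0.000844). In females those 2 had values of 0.03 ± 0.34 and -0.21 ± 0.20, and Cyp3a2 was above background on 27 of 48 arrays. Cyp2c7 also fell in males, by -0.62 ± 0.16 (adjusted p = 0.00417). Ephx1, microsomal epoxide hydrolase, rose in females by 0.78 ± 0.21 (adjusted p = 0.0242) and was 0.34 ± 0.20 in males (adjusted p = 0.229). In females 2 of the 16 rose and 0 fell. The median change of the 16 was -0.12 in males and -0.21 in females, beside -0.02 and 0.01 over all probes. The 2 mg/kg change was not called as different between the sexes for any of the 16. For Cyp3a2 this cannot decide, since a fall cannot show on arrays where it is near background. Between the controls, 3 of the 16 were higher in males and 3 lower.

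Of the 9 tested receptor partners and electron donors, such as Rxra and Cyb5a, 0 were called in either sex at 2 mg/kg by limma. At an unadjusted p under 0.05, 3 of the 9 passed in males and 1 in females. Of all 17661 probes, 6198 passed it in males and 4235 in females. Cyb5a, cytochrome b5, differed from controls by -0.40 ± 0.11 in males (adjusted p = 0.00721), under the fold limit. The median of the 9 was -0.13 in males and 0.06 in females. Among 7 sex-dependent P450s in males, Cyp2c12, a female-specific enzyme, rose by 2.04 ± 0.30 (adjusted p = 1.11e-05), and Cyp3a2 and Cyp2c7, fell as given above. In females 0 of 7 were called. At an unadjusted p under 0.05, 5 of the 7 passed in males and 1 in females. The Cyp2c12 response differed between the sexes by 1.85 ± 0.42 (adjusted p = 0.0236 in limma). The median of the 7 was -0.57 in males and 0.03 in females. Of these 7, 5 were higher and 1, Cyp2c12, was lower in control males than in control females. Over both sexes, Cyp3a2, Cyp4a2 and Cyp2c11 were above background on only 27, 28 and 33 arrays. Their lowest log2 ratios were 0.02, -0.11 and -0.08. A fall cannot show on arrays where a gene is near background. The female count and median therefore cannot decide whether the response of the 7 as a list differed between the sexes.

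Markers of other cell types moved in the same male comparison. Of 4 tested bile duct markers, 3 rose in males at 2 mg/kg: Epcam by 0.92, Krt19 by 0.76 and Spp1 by 0.69. In females Epcam rose, by 0.60. The mean log2 ratio over the 4 ran from -2.45 to -1.79 in control males and from -2.06 to -0.64 at 2 mg/kg, and in females from -2.51 to -1.94 and from -1.99 to -1.37. Of 6 stellate cell markers, Col3a1 (0.85) and Lrat (0.90) rose in males, where the mean over the list ran from -0.83 to -0.14 in controls and from -0.78 to 0.37 at 2 mg/kg. Only 4 of the 6 had a value above controls in males, and 3 of 6 in females. The median changes of the 6 were 0.19 in males and -0.06 in females. Of 5 tested pericentral hepatocyte markers, Oat (-1.19) and Slc1a2 (-0.78) fell in males, with means over the 6 genes with a probe of 1.46 to 2.62 in controls and 1.40 to 2.09 at 2 mg/kg. None of the 6 hepatocyte, 5 periportal, 6 macrophage and 3 endothelial markers was called at 2 mg/kg in limma. At an unadjusted p under 0.05, 5, 4, 1 and 0 of them passed in males and 1, 0, 0 and 0 in females. Of all 17661 probes, 6198 passed it in males and 4235 in females. In males 0 of 6 hepatocyte and 0 of 5 periportal markers had a value above controls, with median changes of -0.46 and -0.49, and in females 2 of 6 and 4 of 5 did, with medians of -0.04 and 0.20. The mean over the hepatocyte markers ran from 6.15 to 8.41 in control males and from 6.01 to 7.76 at 2 mg/kg, and that over the periportal markers from 4.74 to 5.64 and from 4.08 to 5.03. The median changes of the macrophage and endothelial markers were -0.16 and -0.06 in males and -0.19 and -0.18 in females. The ranges of list means are over single arrays and were not corrected for slide, unlike the changes. In both sexes the 2 mg/kg group included an array on slide 5, which held no control. The part of these cell types in the changes of Cyp3a62 and Por was not tested.

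After removal of slide and sex means, the named genes whose log2 ratios over 48 arrays were most like those of Cyp3a62 were Lgals2 (r = 0.861), Phb1 (0.849), Akr7a3 (0.848), Nsun2 (0.828) and Ropn1 (0.826). These points share doses and arrays, so the values describe likeness only. Akr7a3 encodes an aldo-keto reductase that reduces aflatoxin dialdehyde.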

How the data were processed

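Liver RNA was measured on 2-colour Agilent arrays, which per the labels carried Cy5 liver and Cy3 reference RNA. The deposited scanner files, made with Agilent Feature Extraction 10.7.3.1, hold median spot and background intensity, a log10 ratio processed by the scanner software, and 0 or 1 quality marks and other spot marks. The deposited series matrix holds log2 ratios that the authors normalised in R. Set against the scans, 7 of its 49 columns were most like their own scan and 46 like a scan of the same group. The remaining columns were most like a scan of another group, which limits its use for groups as well. It was used for groups only, without slide. All 49 columns were kept, including that of male 26 at 0.03 mg/kg.

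Intensities were background corrected (normexp, offset 50) and loess normalised within arrays in limma 3.58.1 under R 4.3.3, with the R package data.table (version 1.17.8). Spots marked not uniform or deviating were left out, and spots of a probe were averaged. Probes well above background in the liver channel on at least 4 arrays of 1 group were tested. The array with under 10% of liver spots above background was left out. The model had 1 mean per group and slide as a fixed block. All tests were 2-sided with Benjamini-Hochberg adjustment over 17661 probes, and intervals are 95%. Symbols came from RefSeq accessions on GRCr8, which named 59.3% of probes. The labels name individual rats, and arrays limit the precision by their number. On simulated data for males at 2 mg/kg over 17661 probes, 95% of 100 probes changed by 1 on the log2 scale and 100% of 100 changed by 1.5 were called. The changed probes were drawn at random and the noise was normal and independent. These shares therefore describe the tested probes as a whole, and recovery at the members was not tested. The second probe of Cyp2b2, for example, had an SE of 0.40 in that comparison.

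All members and their probes are named. Of the other lists, genes called at 2 mg/kg are named, and, for Cyp3a62, which had the largest called change with dose among the members, its 5 most similar genes. Cyp1a2, Cyb5a, Alb and Ttr were added after their values were seen. Members and lists were chosen with earlier results of these data known. Alternatives covered slide, the dim array, normalisation, filters, array weights, fold limit, a replicate block and each array left out.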

Additional observations from a re-analysis of the deposited data

Results flagged for a closer look

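Within the groups, 5 of 99 probe and group combinations had 1 array far from the others by Dixon's test, where chance flags about 1 in 20. Control male 6 was at 4.58 for the brighter probe of Cyp2b2, against 6.04 for the next lowest control, and it was on slide 8. Female 85 at 2 mg/kg, on slide 5, was at 1.35 for the brighter probe of Nr1i3, against 3.01 for the next. Male 70 at 0.5 mg/kg, on slide 3, was at 5.17 for Nr1i2, against 4.69. Female 62 at 0.5 mg/kg, on slide 7, was at 1.55 for Por, against 0.78. Female 64 at 0.5 mg/kg, on slide 6, was at -0.27 for Cyp1a1, against -0.09, where neither was above background.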

How the results depend on the processing

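Over 14 other settings, the 8 called changes of members kept their direction in every one. The settings were not independent: dropping the fold limit reused the main fit, and the filter settings left the estimates unchanged. Cyp3a62 was called in 11 of the 14 at 2 mg/kg, with a change of 1.20 to 1.92 in males and 0.44 to 2.11 in females. Por in males was called in 11 at 2 mg/kg (0.59 to 0.89), in 6 at 0.12 mg/kg (0.48 to 0.67) and in 4 at 0.5 mg/kg (0.42 to 0.73). Between control sexes, Cyp3a9 was called in 14 (-3.59 to -2.998), Cyp3a18 in 13 (0.55 to 3.86) and Cyp3a62 in 11 (1.25 to 2.04). The cause of the differences was not tested.

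Without slide in the model, with the dim array or without it, 0 members were called in any dose group or by either F test. The matrix of the authors, also without slide and with the dim array, called 0 in males at 0.12, 0.5 and 2 mg/kg and 0 by either F test. In females at 2 mg/kg it called 1, Cyp3a18 (-1.65, adjusted p = 0.0427 in limma), where the main setting called Cyp3a62. In males at 0.12 mg/kg, 0 were called with the dim array, median centring, the scanner ratio, the liver channel alone or array weights, against 1. In males at 0.5 mg/kg, 0 were called with slide as a random block, the dim array, the scanner ratio, the liver channel alone, no filter, array weights or without slides 5 and 6, an alternative chosen after seeing the data. Median centring called 0 by the F test in females. The liver channel alone called 5 between control sexes, and the F test with it called 4 for males and 2 for females. Array weights called 5 between control sexes and 2 in females, both at 2 mg/kg and by the F test.

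With 1 array left out at a time, member counts were 0 to 1 in males at 0.12 and 0.5 mg/kg, 1 to 3 at 2 mg/kg, 1 to 2 in females at 2 mg/kg, 3 to 5 between control sexes and 2 to 4 by the F test in males. Counts stayed at 0 in the other low-dose groups and for the interaction, and at 1 for the F test in females. Males and females share 8 animal numbers within a dose, which mark different rats, and their deviations correlated between -0.289 and 0.26. A replicate block on that number changed none of these calls: with it Cyp3a62 changed by 1.78 in males and 1.51 in females at 2 mg/kg, with 2 members and 1 called. Signal over background limits Ahr, Cyp1a1 and the lower doses of Cyp3a62 in females.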
